A study of Homo sapiens with 15 samples.

Results

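The human silencing hub (HUSH) and the SETDB1 machinery that works with it are encoded by 10 genes described here: TASOR, TASOR2, MPHOSPH8, PPHLN1, MORC2, SETDB1, ATF7IP, ATF7IP2, RESF1 and TRIM28. They were listed by name, for their known roles, and all 10 were found among the 20037 protein-coding genes of the RefSeq annotation used. For each gene, ChIP-seq peaks of MPP8 that overlapped the gene or lay within 10 kb of it were counted, and the distance to the nearest peak was measured. The question was whether the silencing machinery occupies the genes that encode it. The list of genes was drawn up with earlier results of these data known.

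Peaks came from K-562 cells, a human leukaemia line, in 2 genotypes with 1 library each: TASOR KO, in which TASOR had been knocked out with CRISPR/Cas9, and TASOR2 KO, in which its paralog TASOR2 had been knocked out the same way. Both libraries were made with the same MPP8 antibody, and both lines were grown from single sorted cells, so each genotype is 1 clone. The protocols also mention lentivirus with an empty puromycin vector or a tagged transgene. The titles of these 2 samples name no transgene, and no source used here says whether they carried the empty vector. Input chromatin, unedited cells and the rest of the 13 remaining samples were not used here. There was therefore no replicate error and no measure of MPP8 at these genes in unedited cells. Every difference below is between 2 peak lists, with no test. The lists hold no expression values, so neither the cell type nor the knockouts could be checked against them.

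HUSH is built on a scaffold protein, TASOR, or in a second form of the complex its paralog TASOR2. Both scaffolds hold MPP8, a reader of methylated lysine 9 on histone H3, together with periphilin. The complex works with SETDB1, the enzyme that writes trimethylation at that lysine, and with MORC2, an ATPase that compacts chromatin. It is known for silencing LINE-1 elements, other newly inserted DNA and some cellular genes.

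The TASOR KO list held 427 peaks and the TASOR2 KO list 264. The authors numbered their peaks along the genome, and each list holds a part of those numbers: 427 of the 11786 numbers from 1612 to 13397 (3.62%) in TASOR KO, and 264 of 1512 (17.5%) in TASOR2 KO. No source used here says what selected these peaks. No TASOR KO peak lay on chromosomes 1, 13 or Y, and no TASOR2 KO peak on chromosomes 14, 15, 22, X or Y. Below, a gene without a peak is a gene without one in these lists.

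MPP8 peaks lay within 10 kb of 1 of the 10 genes in TASOR KO and of 2 in TASOR2 KO. Among all protein-coding genes, 1.34% had such a peak in TASOR KO and 1.18% in TASOR2 KO. In TASOR KO cells a strong, wide peak covered the start of TASOR2, the gene of the remaining scaffold. In TASOR2 KO cells peaks lay inside ATF7IP2 and RESF1, which encode partners of SETDB1, and the RESF1 peak was weak. TASOR, MPHOSPH8, PPHLN1, MORC2, SETDB1, ATF7IP and TRIM28 had no peak within 10 kb in either list.

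Counted with the 10 kb window, 1 of 10 genes had a peak in TASOR KO, where 268 of all protein-coding genes (1.34%) had one. In TASOR2 KO it was 2 of 10, where 236 of all protein-coding genes (1.18%) had one. The same genes were counted when the peak had to overlap the gene itself, with 1.08% of all protein-coding genes in TASOR KO and 0.858% in TASOR2 KO. With peaks of q 0.05 or less, the count was 1 in each list, TASOR2 in TASOR KO (0.629% of all protein-coding genes) and ATF7IP2 in TASOR2 KO (0.389%). The 10 genes had a median length of 53.4 kb, against 24.1 kb for all protein-coding genes, and longer genes offer more room for a peak. Protein-coding genes between the shortest and the longest of the 10 in length had a peak within 10 kb in 1.43% of cases for TASOR KO and 1.41% for TASOR2 KO. That range holds 13642 of the 20037 genes, so it leaves out the extremes and does not match the 10 in length. Counts among the 10 rest on 1 and 2 genes, so they describe single loci and not the group.

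**Figure D1:**
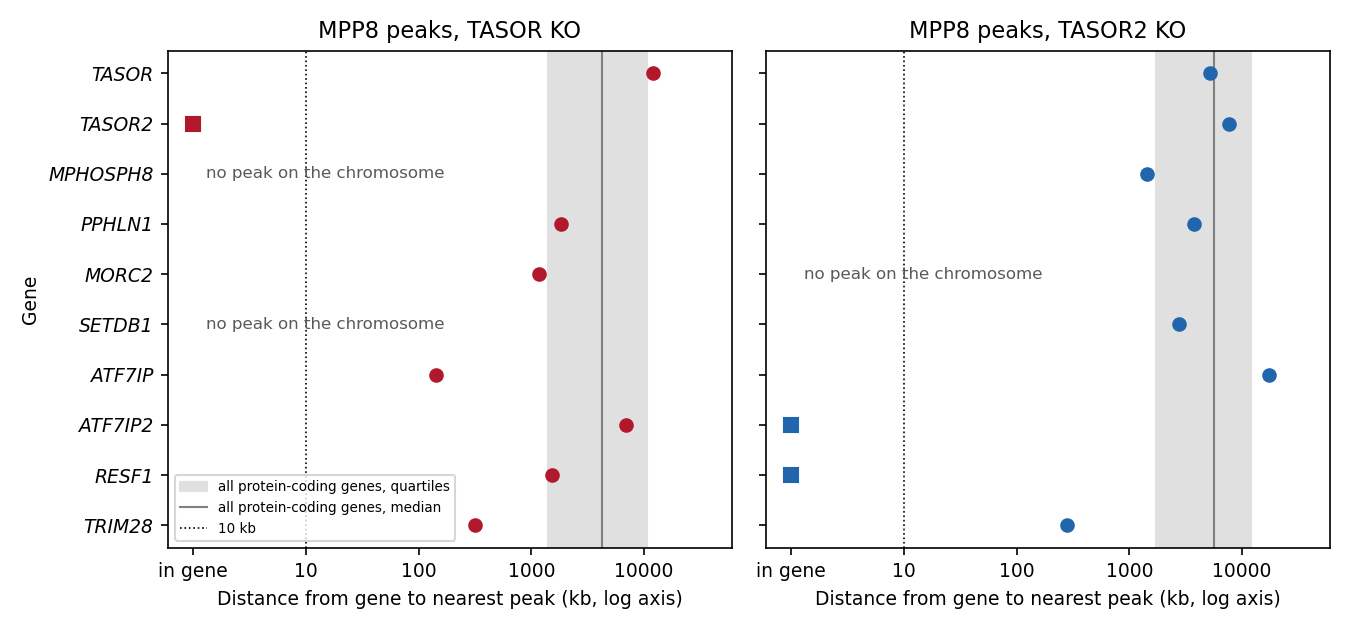
Distance from each gene to the nearest MPP8 peak in TASOR KO (left) and TASOR2 KO (right), in kb on a log axis. Squares mark a peak that overlaps the gene, circles a peak elsewhere on the chromosome, the grey band the quartiles and the grey line the median of all protein-coding genes with a distance; the dotted line marks 10 kb. TASOR2 has a peak in the left panel, ATF7IP2 and RESF1 have one in the right panel, and the nearest of the others lies 142 kb from its gene.

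The scaffold genes differed between the lists. TASOR2 (gene ID 54906, hg38 chromosome 10, 5684838 to 5763740, plus strand) carried a TASOR KO peak from 5681793 to 5688613, 6821 bp wide. The authors' values for it were a fold enrichment of 4.95, a −log10 p of 8.88 and a −log10 q of 5.33, which is a q of 4.64e-06. It ranked 16 of 427 by −log10 q, 33 by fold and 21 by width, where the median TASOR KO peak had a fold of 3.35, a −log10 q of 0.796 and a width of 1929 bp. The peak was thus in the upper part of its list by all 3 measures.

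The TASOR2 peak sat on the first annotated start of the gene. It reached 3045 bp upstream of that start and 3775 bp into the gene, with its centre 365 bp downstream. The table of promoters gives a second start for TASOR2, at 5692798, which lay 4185 bp beyond the end of the peak. Peak and second start therefore did not meet. The neighbouring protein-coding genes were well clear of the peak: ASB13, upstream, ended 15198 bp away, and GDI2, beyond the other end of TASOR2, began 76610 bp away. In TASOR2 KO cells the nearest peak to TASOR2 lay 7.71 Mb away inside BEND7, with a fold of 3.72 and a −log10 q of 0.750. TASOR2 KO cells carry an edited TASOR2 gene, and no source used here gives the site of the edit.

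The RESF1 peak described below covered no annotated start, and ATF7IP2 had no entry in the promoter table. Of the TASOR KO peaks, 90 of 427 (21.1%, exact binomial 95% interval 17.3 to 25.3, counting error only) covered an annotated start of a protein-coding gene. Of the TASOR2 KO peaks, 1 of 264 (0.379%, 0.00959 to 2.09) did so. The promoter table has starts for 15843 of the 20037 protein-coding genes, so both shares may be too low. TASOR2's peak ranked 10 of those 90 by −log10 q and 10 by width. Starts inside a peak were found in TASOR KO for 1 of the 8 HUSH and SETDB1 genes with an entry in the promoter table, against 0.625% of 15843 protein-coding genes with an entry. In TASOR2 KO the counts were 0 of 8, against 0.00631%.

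The promoter under the TASOR KO peak is shown because it is the stretch of a HUSH gene that MPP8 covered, and the TASOR promoter because it belongs to the paralog, where neither list had a peak. Each is the 250 bases upstream of the outermost annotated start, 5′ to 3′ on the strand of the gene, from RefSeq (GRCh38.p14). TASOR2 is read from chr10:5684588-5684837, plus strand, and TASOR from chr3:56683266-56683515, minus strand. Capitals mark matches to any of 5 motifs searched on both strands: the core of the interferon-stimulated response element (ISRE core, GAAA and GAAA with any 2 bases between them, bound by IRF proteins), GGGCGG (GC box, bound by SP factors), CCAAT (bound by NF-Y), CCGGAAGT (bound by ETS factors) and the palindromic NRF1 motif of 10 bases.
TASOR2: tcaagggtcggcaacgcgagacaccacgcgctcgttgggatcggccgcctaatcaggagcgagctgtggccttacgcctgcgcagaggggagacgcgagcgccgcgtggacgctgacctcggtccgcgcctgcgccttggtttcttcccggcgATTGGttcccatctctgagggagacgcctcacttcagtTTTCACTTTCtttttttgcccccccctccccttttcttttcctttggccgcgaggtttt
TASOR: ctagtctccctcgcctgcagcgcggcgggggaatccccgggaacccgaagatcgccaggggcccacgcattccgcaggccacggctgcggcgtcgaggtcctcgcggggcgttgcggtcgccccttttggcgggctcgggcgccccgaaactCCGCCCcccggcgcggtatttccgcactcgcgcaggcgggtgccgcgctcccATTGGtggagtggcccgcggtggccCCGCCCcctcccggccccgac

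The TASOR2 stretch held 1 match to the ISRE core, which lies on the opposite strand and reads TTTCACTTTC on the strand shown, and 1 match to CCAAT, which reads ATTGG. The TASOR stretch held 2 matches to GGGCGG and 1 to CCAAT, all on the opposite strand, and none to the ISRE core. G and C made up 61.6% of the TASOR2 stretch, with 26 CpG dinucleotides, against 76.4% and 37 in the TASOR stretch. A match is a run of letters and does not show a bound factor.

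The ISRE core was the less common of the 2 motifs matched at TASOR2. Over the full windows in the table (250 bases before to 50 after a start), 3.57% of all 35116 promoters held it and 34.6% held CCAAT. Among the outermost promoters of the 8 HUSH and SETDB1 genes with an entry (all but ATF7IP2 and TRIM28), the ISRE core was found at TASOR2 alone. ATF7IP had a match at 3 of its 5 other listed starts, none of them in a peak. GGGCGG was found at 5 of the 8, CCAAT at 5, CCGGAAGT at PPHLN1 alone and the NRF1 motif at none. The ISRE core was also more frequent under TASOR KO peaks in general: 32 of the 137 starts of any gene inside a peak (23.4%) held it. For CCGGAAGT the shares were 15.3% inside a TASOR KO peak and 4.14% of all promoters, and for the NRF1 motif 5.11% and 1.24%. For GGGCGG they were 46.7% and 45.0%, and for CCAAT 40.9% and 34.6%. The 137 starts belong to 123 genes, so some share bases, and no test was made. They include the first start of TASOR2. Their promoters held a median of 21 CpG dinucleotides, against 14 for all promoters, so the 2 sets also differ in CpG content. G and C made up a median of 60.0% of their bases, against 58.7% for all promoters. The motifs were chosen with earlier results of these data known.

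**Figure D2:**
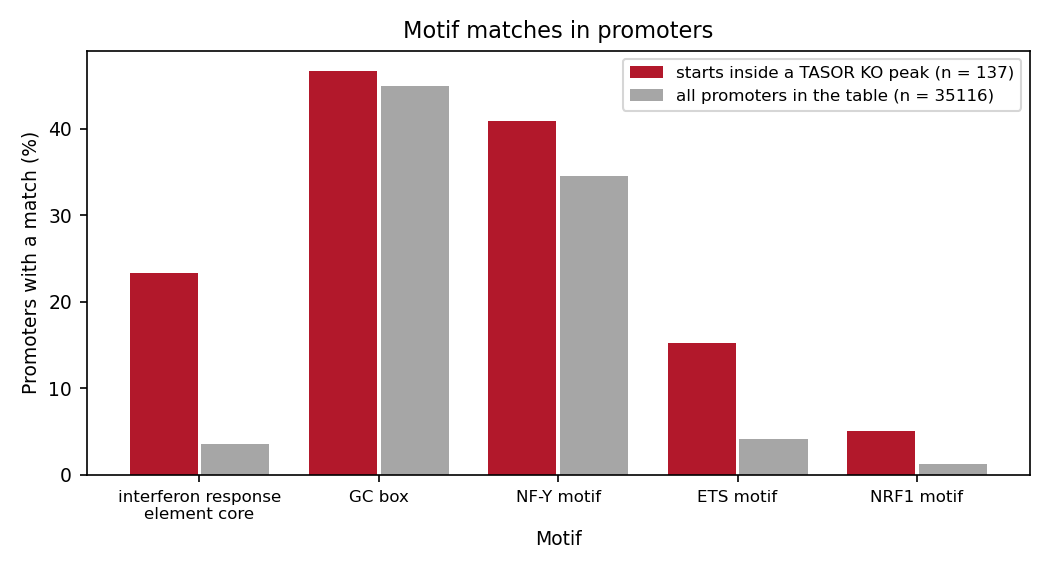
Share of promoters (%) with a match to each of the 5 motifs, for starts inside a TASOR KO peak (red, n = 137) and for all promoters in the RefSeq table (grey, n = 35116); the CCAAT motif is labelled by its factor, NF-Y. The interferon response element core, which TASOR2 carries, is at 23.4% in the red bar and 3.57% in the grey bar, while the GC box is at 46.7% and 45.0%.

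TASOR itself (gene ID 23272, chromosome 3, 56620132 to 56683265, minus strand) lay far from peaks in both lists. The nearest TASOR KO peak was 11.9 Mb away in ZNF502, a zinc finger gene, with a fold of 3.58 and a −log10 q of 1.88. The nearest TASOR2 KO peak was 5.23 Mb away in RBM15B, which encodes an RNA-binding protein, with a fold of 3.74 and a −log10 q of 0.824. Among protein-coding genes with a distance, that is on chromosomes with a peak of the list (17574 in TASOR KO and 17453 in TASOR2 KO), 78.2% had a TASOR KO peak at most as far away and 48.0% a TASOR2 KO peak. TASOR was thus more distant than most genes in TASOR KO and about as distant as the middle gene in TASOR2 KO.

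MPHOSPH8 and PPHLN1 encode the subunits that both scaffolds share, MPP8 and periphilin. MPHOSPH8 (gene ID 54737, chromosome 13, 19633659 to 19673441) had no TASOR KO peak on its chromosome. Its nearest TASOR2 KO peak lay 1.45 Mb away, with a fold of 4.21 and a −log10 q of 1.68, outside protein-coding genes, and 22.5% of protein-coding genes with a distance had one at most as far away. PPHLN1 (gene ID 51535, chromosome 12, 42326167 to 42448621) was 1.84 Mb from a TASOR KO peak in MUC19, a mucin gene (fold 3.19, −log10 q 0.659). It was 3.74 Mb from a TASOR2 KO peak in SLC38A1, an amino acid transporter gene (fold 4.85, −log10 q 2.59, rank 9 of 264). The SLC38A1 peak is among the strongest of its list, but neither peak is near PPHLN1. At those distances or less, 30.3% of protein-coding genes with a distance had a TASOR KO peak and 40.2% a TASOR2 KO peak.

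MORC2 (gene ID 22880, chromosome 22, 30925130 to 30968774) was 1.17 Mb from the nearest TASOR KO peak, which lay 8058 bp from C22orf42 with a fold of 3.93 and a −log10 q of 1.45. At that distance or less, 22.2% of protein-coding genes with a distance had a TASOR KO peak. The TASOR2 KO list had no peak on chromosome 22. MORC2 could therefore be placed against peaks in 1 list only.

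SETDB1 (gene ID 9869, chromosome 1, 150926263 to 150964737) had no TASOR KO peak on its chromosome. The nearest TASOR2 KO peak was 2.76 Mb away, 8263 bp from NBPF11, with a fold of 3.65 and a −log10 q of 0.772. A TASOR2 KO peak lay at most that far from 33.7% of protein-coding genes with a distance. The gene of the methyltransferase could thus be placed against peaks in TASOR2 KO only, and it carried none there.

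Of the ATF7IP genes, ATF7IP2 alone carried a peak, in TASOR2 KO. ATF7IP binds SETDB1 and protects it from degradation, and ATF7IP2 is its paralog, known in mouse for a role in germ cells. ATF7IP2 (gene ID 80063, chromosome 16, 10386061 to 10483638) held a TASOR2 KO peak from 10469638 to 10471346, 1709 bp wide. Its fold was 4.46, its −log10 p 5.86 and its −log10 q 1.85 (q 0.0141), which placed it 28 of 264 by −log10 q, 23 by fold and 145 by width. The peak was therefore high in its list by signal and near the middle by width, the median TASOR2 KO peak having a fold of 3.92, a −log10 q of 1.06 and a width of 1881.5 bp.

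The ATF7IP2 peak lay well inside the gene, 83577 bp from its lower-coordinate end and 12292 bp from its higher-coordinate end. The nearest other protein-coding gene, EMP2, began 57076 bp beyond the peak, and GRIN2A on the other side ended 286730 bp before it. In TASOR KO cells the nearest peak was 6.94 Mb from ATF7IP2, across NAA60, an acetyltransferase gene, and the zinc finger gene ZNF597 (fold 4.16, −log10 q 2.59). At that distance or less, 63.5% of protein-coding genes with a distance had a TASOR KO peak.

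ATF7IP (gene ID 55729, chromosome 12, 14365682 to 14502930) had its nearest TASOR KO peak 142 kb upstream, 8042 bp wide and outside protein-coding genes, with a fold of 4.47 and a −log10 q of 2.59 (rank 68 of 427). No protein-coding gene lay nearer to that peak than ATF7IP. This was the nearest TASOR KO peak that fell outside the 10 kb window. At that distance or less, 4.97% of protein-coding genes with a distance had a TASOR KO peak. In TASOR2 KO its nearest peak was 17.5 Mb away, the peak in RESF1 on the same chromosome, which made ATF7IP the most distant of the genes in that list.

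RESF1 (gene ID 55196, chromosome 12, 31959415 to 31993107, plus strand) encodes a SETDB1 partner known in mouse cells for silencing retroelements. A TASOR2 KO peak lay inside it from 31982947 to 31984263, 1317 bp wide. Its fold was 3.60, its −log10 p 4.23 and its −log10 q 0.675, a q of 0.211, and it ranked 245 of 264 by −log10 q, 230 by fold and 175 by width. The RESF1 peak was therefore among the weakest of its list, and with a threshold of q 0.05 it is not counted. It began 23532 bp from the only start in the promoter table and ended 8844 bp before the end of the gene. The nearest TASOR KO peak was 1.53 Mb away, outside protein-coding genes (fold 3.73, −log10 q 1.22).

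TRIM28 (gene ID 10155, chromosome 19, 58544064 to 58550715), the corepressor that brings SETDB1 to KRAB zinc finger proteins, was the shortest of the 10 genes and lay near peaks of both lists without carrying one. Its nearest TASOR KO peak was 316 kb away and 351 bp outside ZNF544 (fold 3.16, −log10 q 0.425, rank 348 of 427). Its nearest TASOR2 KO peak was 280 kb away inside the same zinc finger gene (fold 4.31, −log10 q 1.51, rank 59 of 264). The peaks lay 34.2 kb apart. Of protein-coding genes with a distance, 8.91% had a TASOR KO peak and 7.41% a TASOR2 KO peak as near as TRIM28 did. Within 1 Mb of TRIM28 were 3 TASOR KO and 5 TASOR2 KO peaks, on a chromosome that held 60 and 65.

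**Figure D3:**
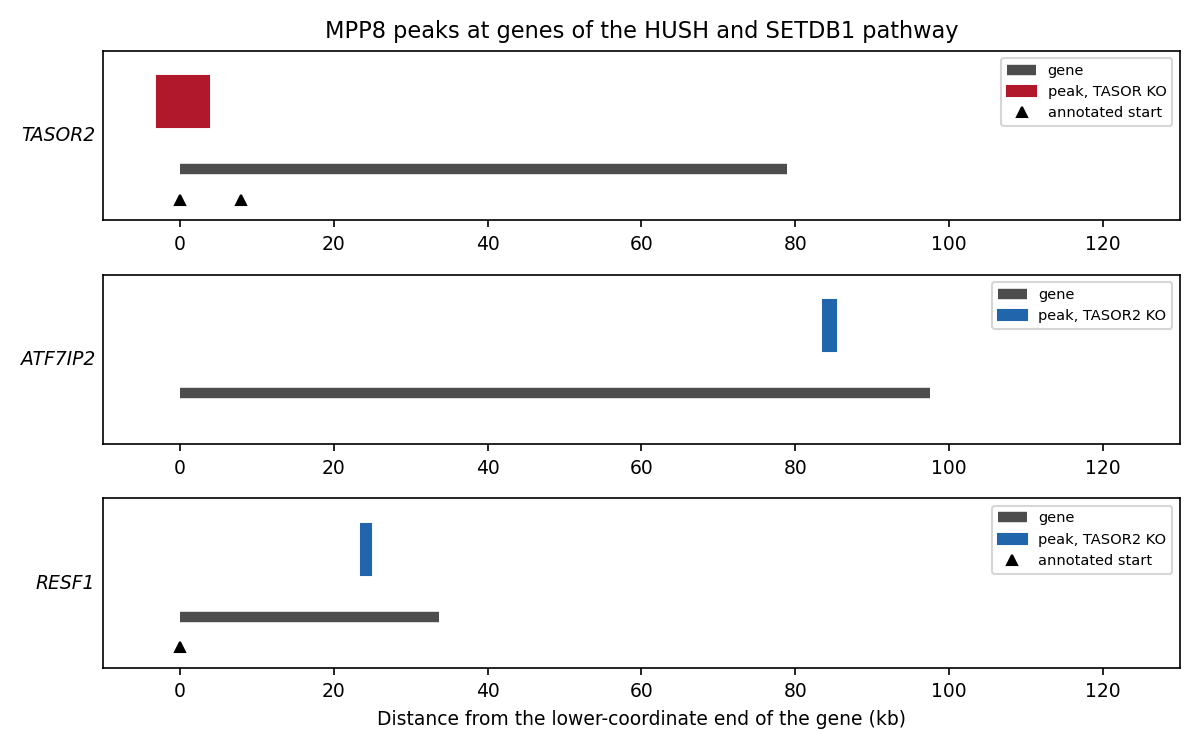
The 3 genes with a peak, each drawn to the same scale from its lower-coordinate end (0 kb). Grey bars are genes, coloured boxes are MPP8 peaks (red TASOR KO, blue TASOR2 KO) and triangles are annotated starts where the promoter table has them; the TASOR2 peak spans the first start, while the RESF1 and ATF7IP2 peaks lie inside their genes.

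**Figure D4:**
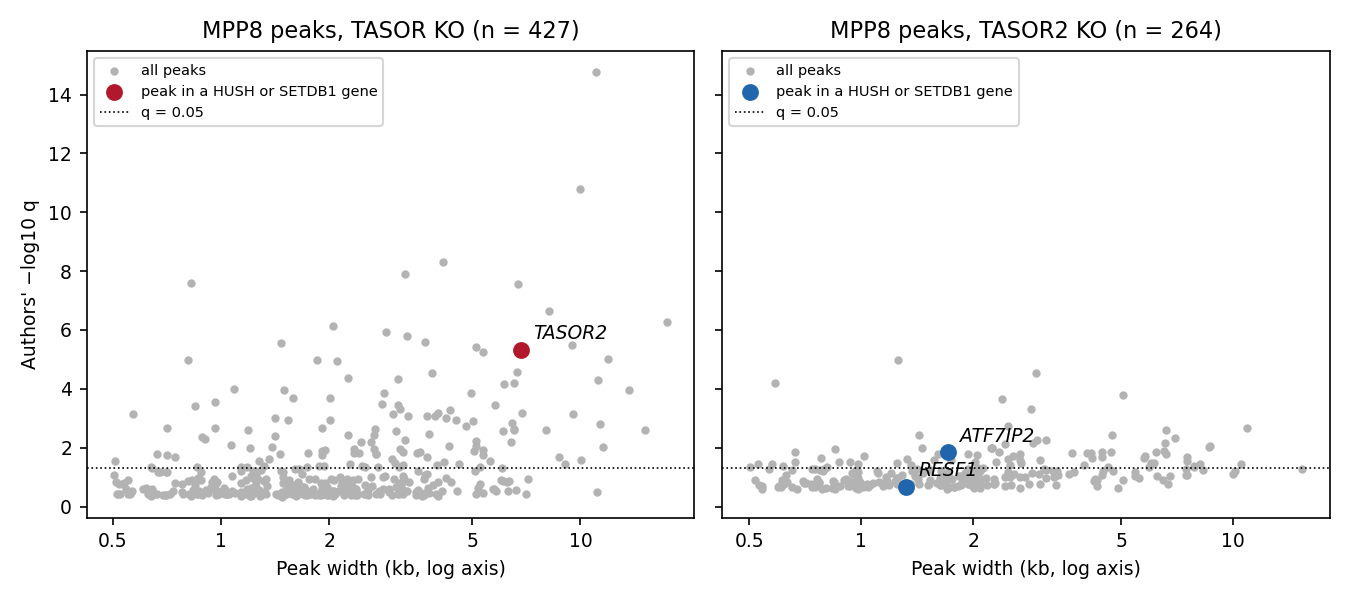
Width (kb, log axis) and the authors' −log10 q of every peak in TASOR KO (left, n = 427) and TASOR2 KO (right, n = 264). Coloured points are the peaks in HUSH and SETDB1 genes and the dotted line is q = 0.05; TASOR2 ranks 16 of 427 and ATF7IP2 28 of 264, both above the line, and RESF1 lies below it at rank 245.

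The distances of the 10 genes ranged widely in both lists. For the 8 genes whose chromosome had a TASOR KO peak, the median distance was 1.35 Mb (0 to 11.9 Mb), against a median of 4.26 Mb and quartiles of 1.40 and 10.6 Mb for all protein-coding genes with a distance. For the 9 genes with a TASOR2 KO distance it was 2.76 Mb (0 to 17.5 Mb), against 5.65 Mb (quartiles 1.72 and 12.1 Mb). A peak within 1 Mb was found in TASOR KO for 3 of 10 genes (TASOR2, ATF7IP and TRIM28), against 17.6% of all protein-coding genes. In TASOR2 KO it was also 3 of 10 (ATF7IP2, RESF1 and TRIM28), against 14.9%. Without the genes that carry a peak, 2 genes in TASOR KO and 1 in TASOR2 KO lay within 1 Mb of one, and the median distance of the 7 others with a distance was 1.53 Mb in TASOR KO and 3.74 Mb in TASOR2 KO. The medians depended on which peaks were used. With peaks of q 0.05 or less, the median of all members with a distance was 3.23 Mb for TASOR KO, against 7.45 Mb for protein-coding genes, and 14.2 Mb for TASOR2 KO, against 15.6 Mb. Without the genes that carry a peak, the median at q 0.05 was 4.87 Mb in TASOR KO and 31.7 Mb in TASOR2 KO. The order of members and protein-coding genes thus turned in TASOR2 KO once those genes were left out. With the higher-scoring part of each list by rank, the median of all members was 1.35 Mb for TASOR KO, against 5.69 Mb, and 12.0 Mb for TASOR2 KO, against 8.86 Mb, so the order turned in TASOR2 KO there too. PPHLN1, ATF7IP and RESF1 share chromosome 12, so their distances are not independent.

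The numbering of the peaks shows how much room there is for calls outside these lists. Numbers followed chromosome (in text order) and then position in both lists, so, if each number is 1 call, the numbers skipped between the listed peaks on either side of a gene count the other calls in that stretch. Around TASOR in TASOR KO, 18 numbers were skipped in 43.3 Mb. In TASOR2 KO, 2 were skipped around TASOR in 68.0 Mb. Around PPHLN1 the skipped numbers were 18 in 4.31 Mb in TASOR KO, a denser stretch, and 15 in 14.2 Mb in TASOR2 KO. Around MORC2 in TASOR KO 2 numbers were skipped in 12.8 Mb, and around MPHOSPH8 in TASOR2 KO 1 was skipped in 24.1 Mb. In TASOR KO the numbers before the first listed peak, 1611 in all, include any calls on chromosome 1 and thus any at SETDB1. In TASOR2 KO 9 were skipped around SETDB1 in 25.6 Mb. The lists do not show where in a stretch a skipped call lies. Every one of the 7 genes without a peak had at least 1 skipped number in its stretch in each list. The genes with a peak in 1 list also had skipped numbers in the other. In TASOR KO 13 were skipped around ATF7IP2 in 15.6 Mb and 12 around RESF1 in 4.97 Mb. In TASOR2 KO 2 were skipped before the first listed peak beyond TASOR2. A call outside the lists is therefore possible there too.

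Peaks at other genes of the pathway were counted in the same way. Of 70 genes for other H3K9 methyltransferases, HP1 and other readers, H3K9 demethylases, MORC and TRIM28 relatives, DNA methylation, the NuRD complex, histone chaperones, nuclear RNA decay and IRF factors, 1 had a peak within 10 kb in TASOR KO (1.43%) and 1 in TASOR2 KO (1.43%). Both shares were close to the 1.34% (TASOR KO) and 1.18% (TASOR2 KO) of all protein-coding genes. They were 1 of 2 IRF genes in TASOR KO and 1 of 8 RNA decay genes in TASOR2 KO, and the other 7 groups had none. The list was drawn up with the IRF2 peak already known. The TASOR KO share rests on that gene alone, so its closeness to the share of all protein-coding genes is not a result. The median distance of the pathway genes to a peak was 2.88 Mb in TASOR KO (61 genes with a distance) and 5.46 Mb in TASOR2 KO (62 genes).

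The pathway gene with a TASOR KO peak was IRF2 (gene ID 3660, chromosome 4, 184387729 to 184474550), a transcription factor of the interferon response that has been reported as a partner of the TASOR2 form of the complex. The peak, from 184473506 to 184475451, spanned the higher-coordinate end of the gene with a fold of 3.93 and a −log10 q of 1.93 (rank 91 of 427). In TASOR2 KO the gene was MTREX (gene ID 23517, chromosome 5, 55307989 to 55425579), the helicase of nuclear RNA decay. Its peak, from 55315685 to 55318204, lay inside the gene and was weak, with a fold of 3.74, a −log10 q of 0.737 (q 0.183) and rank 220 of 264. None of the other 68 pathway genes had a peak within 10 kb in either list, among them the H3K9 methyltransferase genes SUV39H1, EHMT1 and EHMT2 and the HP1 genes CBX1, CBX3 and CBX5. Only 61 of the 70 genes in TASOR KO and 62 in TASOR2 KO lie on chromosomes with a listed peak. Such peaks are rare among all protein-coding genes (1.34% and 1.18%), so their absence is not a result about these genes.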

How the data were processed

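Peak lists of 2 MPP8 ChIP-seq samples were used, 1 per genotype, grouped by their titles. Per the labels' protocols, cells were fixed with 1% formaldehyde for 10 minutes, chromatin was fragmented by micrococcal nuclease plus sonication, and mouse chromatin was added as a spike-in. The submitters' processing notes name MACS2, deepTools, Bowtie2 (version 2.3.5.1) and the builds hg38 and mm9. The deposited lists lack a header, and their 9 columns follow the layout of MACS2 broad peaks. By that layout, the authors gave each peak a fold enrichment (a ratio), a −log10 p and a −log10 q. The deposited score was the whole part of 10 times −log10 q in all 427 and 264 peaks and was not used further. No source used here gives the control library, the threshold or the use of the spike-in. The lists hold no read totals, and depth is therefore unknown.

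Peaks were read to 1-based coordinates and ranked within a list by −log10 q. Distances ran from the RefSeq gene body (GRCh38.p14) to the peak edge, 0 for an overlap of 1 bp or more. The distance step recovered 200 of 200 distances planted at protein-coding genes. Starts and promoters came from a RefSeq promoter table of the same build, in which 8 of the 10 genes matched. The planned protein comparison was not run. The members, the 70 pathway genes and the motifs were chosen with earlier results of these data known. Named genes were the 10 members, pathway genes with a peak within 10 kb, the genes at each nearest peak and the neighbours of members with a peak; the SUV39H1, EHMT and CBX genes were named after their values were seen. Software was matplotlib 3.10.9, scipy 1.17.1, pandas 2.3.3, numpy 2.4.6 and Python 3.11.15.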

Additional observations from a re-analysis of the deposited data

How the results depend on the processing

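Of 57 alternative values over 8 results, 29 stayed within 1.5 times the count or distance or within the exact binomial interval of the share, and 28 did not. The count of HUSH and SETDB1 genes with a TASOR KO peak was 1 under all 8 alternatives. In TASOR2 KO it was 2, but 1 with q of 0.05 or less, 1 in the higher-scoring part of the list by rank (both without RESF1), and 0 for gene starts within 10 kb, for which ATF7IP2 had no entry. The share of protein-coding genes with a peak in TASOR KO (1.34%) was 1.08% for overlap with the gene, 1.12% at 1 kb, 2.54% at 50 kb, 0.629% at q 0.05, 0.893% in the higher-scoring part, 0.858% for starts, 0.813% for all annotated genes and 1.52% on chromosomes with a peak. In TASOR2 KO (1.18%) the same settings gave 0.858%, 0.893%, 2.17%, 0.389%, 0.644%, 0.290%, 0.627% and 1.35%. Chosen after seeing the data were the length range of the members (1.43% for TASOR KO, 1.41% for TASOR2 KO) and a common q threshold, the weakest in TASOR2 KO, with which TASOR KO gave 1.03%. Pathway genes with a peak were 3 in TASOR KO at 50 kb (with HIRA and TRIM24) and 0 for starts, as IRF2 had no entry. In TASOR2 KO they were 0 at q 0.05 and 0 in the higher-scoring part. At q 0.05 the median distance of the members became 3.23 Mb for TASOR KO and 14.2 Mb for TASOR2 KO, and it was 12.0 Mb for TASOR2 KO in the higher-scoring part, since fewer peaks lie farther apart. No paired analysis was possible because there was a single library of each genotype, so none could be left out either.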
